A study of Homo sapiens with 8 samples.

Results

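miR-451a and 6 miRNAs of blood cells were followed in cells rescued with mutant or wild-type DICER. The cells are HCT116, an epithelial line from a colorectal carcinoma. The set was chosen by name, as hsa-miR-451a, which matures without DICER, its cluster mate hsa-miR-144-3p, and hsa-miR-486-5p, hsa-miR-142-5p, hsa-miR-142-3p, hsa-miR-150-5p and hsa-miR-223-3p (the species prefix is left out below). These are 7 of the 1818 mature miRNA names listed in any library, and 5 of them are among the 625 names that passed a filter on low counts. miR-150-5p and miR-223-3p did not pass it and are described by their reads alone.

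Small RNAs were counted by AQ-seq, a library method with reduced ligation bias, in 8 libraries. Of these, 2 came from cells rescued with R1855L DICER, 2 from R821H, 2 from R1003Q and 2 from wild-type (WT) DICER. The comparisons ask how each substitution in DICER, an RNase III that dices precursor hairpins, changes miRNA levels relative to WT DICER. All groups share the cell line and the rescue. The sources used here do not say whether any endogenous DICER remained, how strongly the rescue construct was expressed, or whether a group is 1 clone, and DICER itself was not analysed here. Separate cultures are not stated for the replicates either, and the p-values therefore reflect library-to-library spread that may be technical.

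Most miRNA precursors are released in the nucleus by DROSHA and are then cut by DICER in the cytoplasm. The miR-451a precursor has a stem too short for DICER. It is loaded directly into AGO2, whose slicer activity cuts it, and its 3′ end is then trimmed. miR-144 lies in the same primary transcript and takes the usual DICER route, so the pair gives a DICER-dependent and a DICER-independent product of 1 transcript. Both are abundant in erythroid cells, where miR-486-5p, from a hairpin within the ankyrin gene ANK1, also accumulates. miR-142 is expressed across the blood lineages, miR-150 in mature lymphocytes and miR-223 in myeloid cells. None of them is a usual marker of colon epithelium.

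In GRCh38, MIR451A lies on chromosome 17 at 28861369 to 28861440 on the minus strand, and MIR144 at 28861533 to 28861618 on the same strand. The 2 annotated hairpins are separated by 92 bases, and both overlap an exon of the lincRNA AC024267.1 in GENCODE 29. MIR142 lies on chromosome 17 at 58331232 to 58331318 on the minus strand, over an exon of the antisense transcript AC004687.1. MIR150 lies on chromosome 19 at 49500785 to 49500868 on the minus strand with no other gene on that strand. MIR223 lies on chromosome X at 66018870 to 66018979 on the plus strand, over an exon of AL034397.3.

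Mature sequences were matched for 4 of the 7 miRNAs in RefSeq (GRCh38.p14) and are shown because the seed defines the family of a miRNA. Capitals mark the seed, bases 2 to 8 from the 5′ end.
miR-144-3p: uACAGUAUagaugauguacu
miR-142-5p: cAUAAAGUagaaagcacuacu
miR-142-3p: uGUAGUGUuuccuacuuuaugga
miR-223-3p: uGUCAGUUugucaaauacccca
The 4 seeds are all different. Among the mature sequences in the RefSeq table, miR-5590-3p alone shares one of them, that of miR-142-5p, and it had 0 reads in all 8 libraries.

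The hairpins of the miR-144 and miR-142 genes are shown because reads of both their strands are given below. Only miR-142 had enough reads for a test of the strand ratio. Capitals mark the 5p and the 3p product, in that order.
MIR144: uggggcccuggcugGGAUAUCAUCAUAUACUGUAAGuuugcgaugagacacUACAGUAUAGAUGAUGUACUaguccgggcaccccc
MIR142: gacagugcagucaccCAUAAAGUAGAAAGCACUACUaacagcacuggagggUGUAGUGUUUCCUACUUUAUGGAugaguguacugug

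Library totals ran from 462805 to 4269231 reads, and 3 reads, the limit that a count of 0 allows, correspond to 6.48 CPM (counts per 1e+06 reads) in the shallowest and 0.703 CPM in the deepest library. Intervals and floors cover counting error only. Epithelial miRNAs of the miR-200 family summed to between 2669 and 3554 CPM after TMM scaling, a correction for library composition. The sum was not even over its members. Of the 5, edgeR called 2 lower in R1855L against WT, where it called 5.44% of all tested miRNAs lower. Mean levels in R1855L and WT were 312 and 638 CPM for miR-429, and 12.9 and 35.0 CPM for miR-141-3p. The colon miRNAs miR-192-5p, miR-194-5p and miR-215-5p summed to between 284 and 344 CPM. Nearly all of that sum was miR-192-5p and miR-194-5p. miR-215-5p had 0 to 5 reads a library and did not pass the filter. The share of reads in the 7 blood miRNAs was lowest at 0.0632% (95% interval by Clopper-Pearson 0.0579 to 0.0688, R821H replicate 2) and highest at 0.110% (0.100 to 0.120, R1855L replicate 2). Libraries were divided at the widest gap between their totals. R1855L replicate 1, R821H replicate 1 and WT replicate 2 were deep (2241881 reads or more), and the other 5, including both R1003Q libraries, were shallow (1143373 reads or fewer).

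None of the blood miRNAs was called in any mutant against WT. With group alone in the model, edgeR called 0 of the 5 tested members in R1855L, where it called 5.76% of all tested miRNAs. It called 0 of 5 in R821H and 0 of 5 in R1003Q, where 0% of all tested miRNAs were called. At an unadjusted p under 0.05 there were 0 members in R1855L, 1 in R821H and 0 in R1003Q, beside 115, 20 and 31 of all 625 tested miRNAs. DESeq2 called 0 members in each. Median log2 fold changes of the 5 members were 0.25 in R1855L, -0.11 in R821H and -0.22 in R1003Q, beside 0.13, 0.04 and 0.06 over all tested miRNAs. All 3 comparisons use the same WT libraries.

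**Figure D1:**
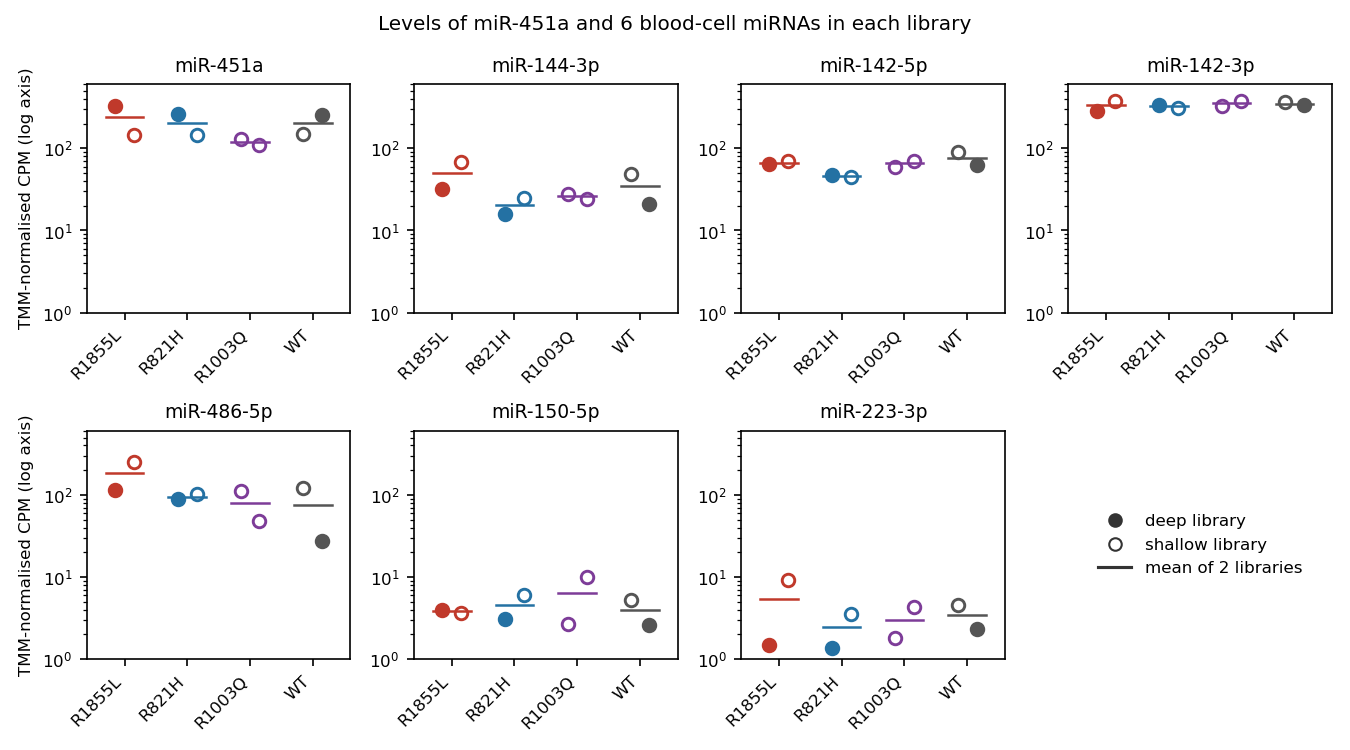
TMM-normalised CPM on a log axis of each miRNA in R1855L, R821H, R1003Q and WT libraries, with filled points for deep and open points for shallow libraries and a line at the mean of 2 libraries. miR-142-3p varied least, between 284 and 383 CPM, and miR-150-5p and miR-223-3p were at 9.95 CPM or less in every library.

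miR-451a was present in every library at levels within the range of many HCT116 miRNAs. It ranked 206 of 625 by mean CPM. Its reads were 677 and 80 in R1855L (replicates 1 and 2 here and below), 768 and 121 in R821H, 144 and 78 in R1003Q, and 199 and 978 in WT. As TMM-normalised levels these were 333 and 147 CPM in R1855L, 262 and 144 CPM in R821H, 129 and 111 CPM in R1003Q, and 151 and 254 CPM in WT. The 3 deep libraries held the 3 highest levels, each above the shallow library of its group. R1003Q lay below both WT libraries, whereas R1855L and R821H overlapped WT. Libraries that lay lower without overlap were found for 17.8% of all tested miRNAs in R1003Q against WT.

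Group means of miR-451a were 240 ± 131 CPM in R1855L, 203 ± 83.3 CPM in R821H, 119.8 ± 12.6 CPM in R1003Q and 203 ± 73.0 CPM in WT (SD, n = 2 each). The log2 fold change against WT was 0.25 in R1855L (SE 0.47, 95% interval -0.84 to 1.35, edgeR adjusted p = 0.799). In R821H it was 0.01 (SE 0.47, interval -1.09 to 1.10, edgeR adjusted p = 0.994), and its sign changed under several alternatives. In R1003Q it was -0.76 (SE 0.48, interval -1.88 to 0.36, edgeR adjusted p = 0.857). The R1855L value turned to -0.47 without R1855L replicate 1 and to -0.0406 without WT replicate 1, and the R821H value to -0.50 without R821H replicate 1 and to -0.33 without WT replicate 1. In total RNA of a culture, fewer cells that contain a miRNA and less of it per cell cannot be told apart.

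The R1003Q difference of miR-451a was smaller among libraries of like depth. Against the 1 shallow WT library the 2 R1003Q libraries differed by -0.34 log2 units on average. With depth class as a term, the log2 fold change was -0.24 in R1003Q (SE 0.24, edgeR adjusted p = 0.720), 0.21 in R1855L (SE 0.21, adjusted p = 0.485) and -0.01 in R821H (SE 0.21, adjusted p = 0.981). Under that model 0 of 5 members were called in R1855L, where 28.3% of all tested miRNAs were called, 0 of 5 in R821H (2.56%) and 0 of 5 in R1003Q (0.320%). At an unadjusted p under 0.05 it gave 2 members in R1855L, 2 in R821H and 1 in R1003Q. How many of all tested miRNAs reached that unadjusted level was not counted under this model.

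**Figure D2:**
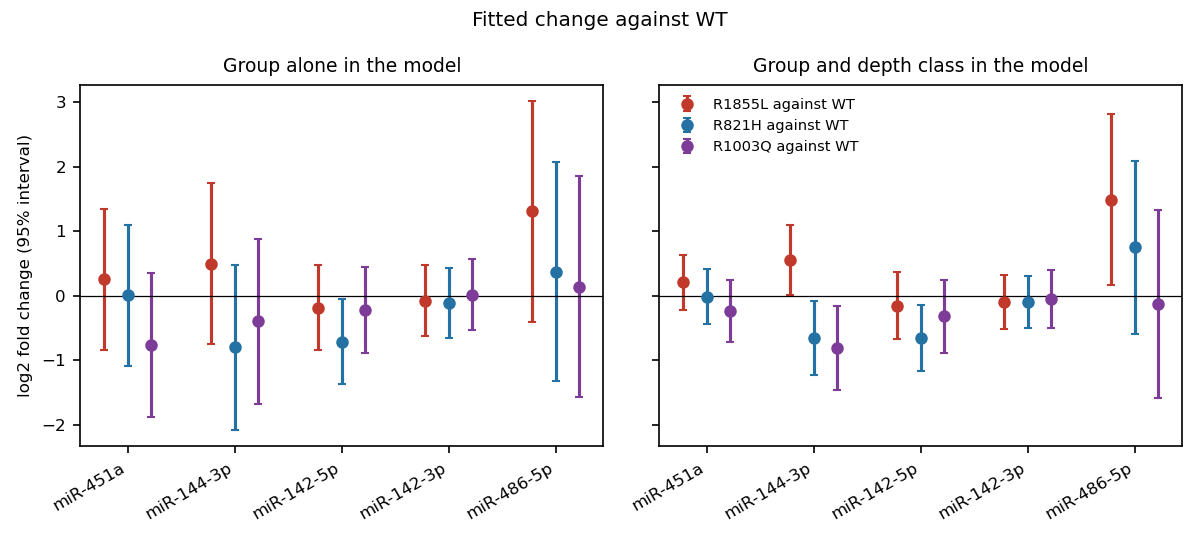
Fitted log2 fold change against WT of the 5 tested miRNAs (points) with 95% intervals (bars), from the model with group alone on the left and with group and depth class on the right. The intervals of miR-451a spanned 0 in all 3 mutants in both models, and those of miR-486-5p were the widest.

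miR-144-3p, the DICER-dependent cluster mate, was less abundant, at rank 374 of 625. Its reads were 66 and 37 in R1855L, 46 and 21 in R821H, 31 and 17 in R1003Q, and 65 and 80 in WT. Levels were 32.5 and 68.1 CPM in R1855L, 15.7 and 25.01 CPM in R821H, 27.7 and 24.2 CPM in R1003Q, and 49.4 and 20.8 CPM in WT. In R1855L, R821H and WT the deep library held the lower level, opposite to miR-451a, and all 3 mutants overlapped WT. The log2 fold change against WT was 0.50 in R1855L (SE 0.53), -0.80 in R821H (SE 0.55) and -0.39 in R1003Q (SE 0.55), with edgeR adjusted p = 0.681, 0.994 and 0.910. With the depth term it was 0.55 in R1855L (SE 0.26, edgeR adjusted p = 0.118), -0.65 in R821H (SE 0.28, adjusted p = 0.262) and -0.80 in R1003Q (SE 0.32, adjusted p = 0.255). With group alone, the R1855L value was -0.11 without R1855L replicate 2 and -0.11 without WT replicate 2.

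Between mutants, miR-144-3p was lower in R821H and in R1003Q than in R1855L, without overlap of the libraries, at a size that group alone in the model did not call. The log2 fold change was -1.30 in R821H against R1855L (SE 0.56, edgeR adjusted p = 0.338) and -0.89 in R1003Q against R1855L (SE 0.56, adjusted p = 0.502). Lower libraries without overlap were found for 17.3% and 20.6% of all tested miRNAs in these comparisons. They were not particular to miR-144-3p among the members. miR-486-5p lay lower without overlap in both (-0.93, SE 0.73, and -1.16, SE 0.74). So did miR-142-5p in R821H against R1855L and miR-451a in R1003Q against R1855L. With the depth term both miR-144-3p differences were called lower, at -1.20 (SE 0.29, edgeR adjusted p = 0.00309) and -1.36 (SE 0.33, adjusted p = 0.00434). Those of miR-486-5p were -0.74 (SE 0.52) and -1.62 (SE 0.60, edgeR adjusted p = 0.149). That model called 5.92% and 5.12% of all tested miRNAs lower in the same comparisons, and no other member. Of 8 alternatives to the main model, the depth term was the only 1 to call either. The first call was lost without R821H replicate 2 (-1.004, SE 0.38). The second value lay between -1.47 and -1.26 with any 1 library left out. R1003Q has no deep library, so its value under that model takes the depth difference from the other groups. With group alone and 1 library left out, R1003Q against R1855L lay between -1.38 and -0.33. R1855L had the fewest reads within each depth class, and the part of that difference in these calls was not tested.

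No other comparison between mutants called a member. With group alone in the model edgeR called 0 of 5 members in R821H against R1855L, 0 of 5 in R1003Q against R1855L and 0 of 5 in R1003Q against R821H, where it called 3.84%, 3.68% and 0% of all tested miRNAs. At an unadjusted p under 0.05 there were also 0 members in each, beside 93, 92 and 10 of all 625 tested miRNAs. DESeq2 called 0 members in each. miR-451a was lower in both R1003Q libraries than in either R1855L library, as were 20.6% of all tested miRNAs. The log2 fold change was -1.01 (SE 0.48, edgeR adjusted p = 0.391), and -0.45 with the depth term (SE 0.25, adjusted p = 0.252). Against R821H, miR-451a in R1003Q was at -0.77 (SE 0.48), and at -0.23 with the depth term (SE 0.24). Both R1003Q libraries are shallow.

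The ratio of miR-451a to miR-144-3p, which library scaling cannot move, compares the DICER-independent with the DICER-dependent product of the cluster within each library. There were 10.3 and 2.16 reads of miR-451a per read of miR-144-3p in R1855L, 16.7 and 5.76 in R821H, 4.65 and 4.59 in R1003Q, and 3.06 and 12.2 in WT. WT spanned most of the range seen in the mutants, and the 2 R1003Q libraries, between the WT values, were nearly equal. Mean log2 ratios were 2.23 ± 1.59 in R1855L, 3.27 ± 1.09 in R821H, 2.18 ± 0.02 in R1003Q and 2.61 ± 1.41 in WT (SD, n = 2 each). Differences from WT were -0.38 in R1855L (exact two-sided permutation p = 0.667), 0.67 in R821H (exact p = 0.667) and -0.42 in R1003Q (exact p = 1). Adjusted over the 3 comparisons each exact p is 1, and 2 libraries against 2 cannot give a p below 0.333. None of the differences exceeded the spread of the WT replicates. The R1855L difference turned to 0.62 without WT replicate 2 and to 0.74 without R1855L replicate 2, the R821H difference to -0.33 without WT replicate 1 and to -0.11 without R821H replicate 1, and the R1003Q difference to 0.57 without WT replicate 2.

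The ratio separated the libraries by depth. It was 10.3 to 16.7 in the 3 deep libraries and 2.16 to 5.76 in the 5 shallow ones, without overlap. Within depth classes, with 1 library a side, R1855L differed from WT by -0.25 among deep and -0.50 among shallow libraries, and R821H by 0.44 and 0.89. The 2 R1003Q libraries lay 0.57 above the shallow WT library, the opposite sign to the pooled difference of -0.42.

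**Figure D3:**
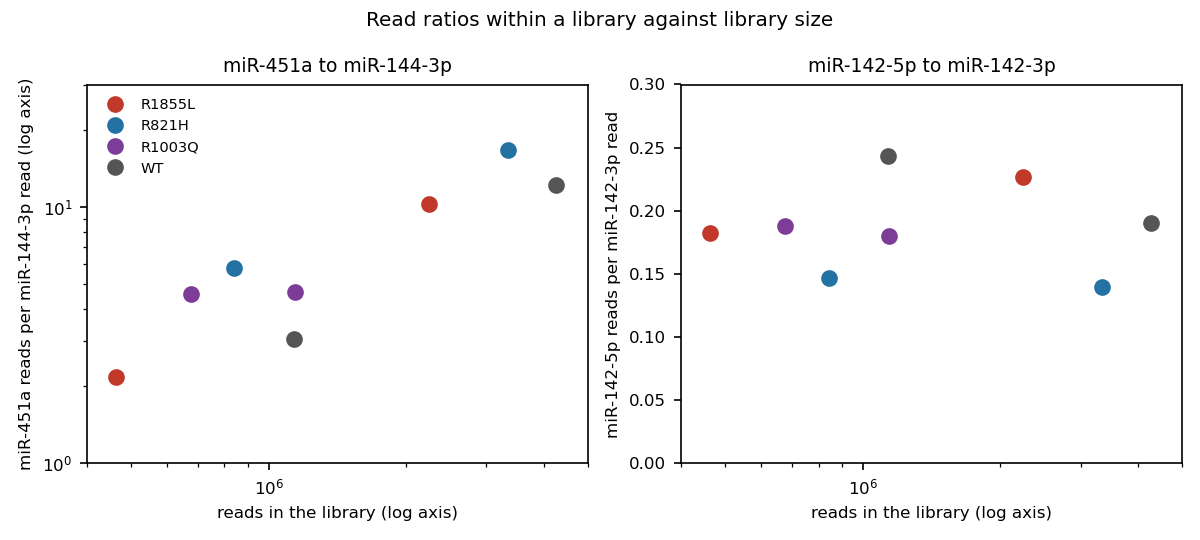
Reads of miR-451a per read of miR-144-3p (left, log axis) and of miR-142-5p per read of miR-142-3p (right, linear axis) against reads in the library (log axis), 1 point a library coloured by group. On the left the 3 deep libraries lie above the 5 shallow ones, and on the right both R821H libraries lie below the other 6.

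Both products of the cluster were called between deep and shallow libraries, in opposite directions. With group in the model, 36.5% of all tested miRNAs were called between the depth classes (17.8% higher in deep libraries, 18.7% lower), and 2 of the 5 members were among them. miR-451a was 0.92 log2 units higher in deep libraries (SE 0.17, edgeR adjusted p = 0.000117). miR-144-3p was 1.04 log2 units lower in deep libraries, a fitted difference of -1.04 (SE 0.23, edgeR adjusted p = 0.00074). With any 1 library left out both stayed called, at 0.76 to 1.04 for miR-451a and -1.16 to -0.86 for miR-144-3p. This contrast rests on R1855L, R821H and WT, since both R1003Q libraries are shallow. The labels give no batch or date, so depth and any other difference between the deep and the shallow libraries cannot be told apart.

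miR-486-5p, an erythroid and muscle miRNA, varied most, with a 9.27-fold range of CPM over the 8 libraries. Its reads were 230 and 137 in R1855L, 258.5 and 85 in R821H, 123.5 and 34 in R1003Q, and 160.5 and 104.5 in WT, the fractions being part of the deposited counts. Levels were 113 and 252 CPM in R1855L, 88.2 and 101 CPM in R821H, 110.4 and 48.3 CPM in R1003Q, and 122 and 27.2 CPM in WT. The deep WT library was the lowest of all and the shallow R1855L library the highest, and every mutant overlapped WT. The log2 fold change was 1.31 in R1855L (SE 0.73, 95% interval -0.41 to 3.02, edgeR adjusted p = 0.384), 0.37 in R821H (SE 0.73) and 0.14 in R1003Q (SE 0.73). Without WT replicate 2 the changes in R821H and R1003Q turned to -0.47 and -0.68. With the depth term it was 1.49 in R1855L (SE 0.54, edgeR adjusted p = 0.0919). The difference between deep and shallow libraries was -1.17 (SE 0.44, edgeR adjusted p = 0.0941). It was called at -1.64 without either R821H library and at -1.17 without either R1003Q library, and was between -0.66 and -1.22, not called, without any other.

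miR-142-3p, the most abundant of the set at rank 158, was the steadiest. Its reads were 577 and 208 in R1855L, 1000 and 259 in R821H, 372 and 266 in R1003Q, and 485 and 1284 in WT. Levels were 333 ± 70.0 CPM in R1855L, 325 ± 23.0 CPM in R821H, 355 ± 32.2 CPM in R1003Q and 351 ± 24.3 CPM in WT (SD, n = 2 each). All mutants overlapped WT. Log2 fold changes were -0.08 in R1855L, -0.11 in R821H and 0.02 in R1003Q (SE 0.23 to 0.24), and the sign in R1003Q changed under several alternatives. Its difference between deep and shallow libraries was -0.14 (SE 0.16), which was not called.

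miR-142-5p, the other strand of the same hairpin, was lower in R821H than in WT in both libraries. Its reads were 131 and 38 in R1855L, 140 and 38 in R821H, 67 and 50 in R1003Q, and 118 and 244 in WT. Levels were 64.4 and 69.9 CPM in R1855L, 47.7 and 45.3 CPM in R821H, 59.9 and 71.1 CPM in R1003Q, and 89.6 and 63.5 CPM in WT. Both R821H libraries lay below the other 6. Against WT alone, lower R821H libraries without overlap were found for 13.1% of all tested miRNAs. The share lying below all 6 was not counted. The log2 fold change in R821H was -0.71 (SE 0.28, 95% interval -1.37 to -0.05, edgeR adjusted p = 0.994, and 0.0388 before adjustment). With depth class in the model it was -0.65 (SE 0.25, edgeR adjusted p = 0.187). In R1855L and R1003Q it was -0.19 and -0.22 (SE 0.28 each, edgeR adjusted p = 0.760 and 0.903).

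The miR-142 strand ratio followed from these values. The log2 ratio of 5p to 3p reads was -2.29 ± 0.21 in R1855L, -2.79 ± 0.06 in R821H, -2.43 ± 0.05 in R1003Q and -2.21 ± 0.25 in WT (SD, n = 2 each), so the 3p strand was the more abundant in every library. Against WT the ratio differed by -0.07 in R1855L, -0.58 in R821H and -0.22 in R1003Q (SE 0.34 each), with limma adjusted p = 0.953, 0.862 and 0.870 over 174 strand pairs. Of those pairs 7.47% were called in R1855L, 0% in R821H and 0% in R1003Q, and the 1 tested pair of these hairpins, miR-142, was not among them. The other hairpins had too few reads on 1 strand. miR-144-5p had 23 reads over all 8 libraries against 363 of miR-144-3p, and miR-486-3p, whose removal from its duplex in erythroid cells is known to use AGO2 slicing, had 42.5 against 1133 of miR-486-5p. miR-223-5p had 3 reads, all in WT replicate 2, and miR-150-3p had 0. Of the other names at the miR-144 locus, miR-451b had 1 read and both strands of miR-4732 had 0.

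miR-150-5p and miR-223-3p, the lymphoid and myeloid members, were near the floor. miR-150-5p, a repressor of MYB, had 8 and 2 reads in R1855L, 9 and 5 in R821H, 3 and 7 in R1003Q, and 7 and 10 in WT. miR-223-3p, a regulator of granulocyte development, had 3 and 5 reads in R1855L, 4 and 3 in R821H, 2 and 3 in R1003Q, and 6 and 9 in WT. In reads of miR-150-5p every group overlapped or met every other. WT had the highest miR-223-3p counts, whereas as CPM the lowest and highest values, 1.36 and 9.20, were in mutants. A count of 2 has an exact Poisson 95% interval of 0.242 to 7.22 reads, and a count of 10 one of 4.80 to 18.4 reads. Neither miRNA was tested, so no difference between groups is drawn from these counts.

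Markers of other cell types were read beside these results. Of the leukocyte list, miR-142-3p and miR-142-5p passed the filter and miR-223-3p, miR-150-5p and miR-155-5p did not. miR-155-5p, a miRNA of activated lymphocytes, had 1 read, in R821H replicate 2, and 0 in the other 7 libraries. The leukocyte list summed to 354 and 466 CPM in R1855L, 393 and 364 CPM in R821H, 397 and 463 CPM in R1003Q, and 468 and 402 CPM in WT. The erythroid list, made of miR-451a, both strands of miR-144 and miR-486-5p, summed to 481 and 467 CPM in R1855L, 367 and 273 CPM in R821H, 270 and 183 CPM in R1003Q, and 323 and 304 CPM in WT. The 2 R1855L sums were carried by different miRNAs, with miR-451a at 333 CPM in replicate 1 and miR-486-5p at 252 CPM in replicate 2, and no erythroid miRNA was called against WT. The endothelial pair miR-126-3p and miR-126-5p summed to between 880 and 1768 CPM, and miR-122-5p, a liver miRNA, lay between 67.4 and 118 CPM. The muscle miRNAs miR-1-3p and miR-206 were at 0 in 5 and 6 of the 8 libraries, while miR-133a-3p lay between 3.12 and 11.3 CPM. Of the neuronal miRNAs, miR-124-3p had at most 1.67 reads and miR-9-5p lay between 453 and 1186 CPM. Whether RNA of other cells or of other libraries takes part in the values of the members was not tested.

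Other miRNAs used in blood lineages gave no call against WT. Of 8 listed, 7 were tested (miR-146a-5p, both strands of miR-342 and of miR-126, miR-424-5p and miR-503-5p), and edgeR called 0 in each mutant against WT, with 0 at an unadjusted p under 0.05 and 0 called by DESeq2, where edgeR called 5.76% of all tested miRNAs in R1855L and 0% in R821H and R1003Q. Their median log2 fold changes were 0.18 in R1855L, -0.10 in R821H and -0.28 in R1003Q. With the depth term 0 of 7 were again called against WT. Of all tested miRNAs that model called 28.3% in R1855L, 2.56% in R821H and 0.320% in R1003Q. The medians under it were 0.19, -0.09 and 0.22, so that of R1003Q turned sign. It called miR-126-5p lower in R1003Q than in R1855L (-0.91, SE 0.27, edgeR adjusted p = 0.0344), where 5.12% of all tested miRNAs were called lower. miR-424-5p was called higher in deep libraries (1.33, SE 0.18, edgeR adjusted p = 1.15e-06), as were 17.8% of all tested miRNAs. A second list held 5 miRNAs abundant in red cells and in many other cells (miR-16-5p, miR-92a-3p, miR-25-3p, let-7b-5p and miR-191-5p). Of these, 1 was called lower in R1855L, where 5.44% of all tested miRNAs were. None was called in R821H or R1003Q, where 0 and 1 had an unadjusted p under 0.05 and DESeq2 called 0. With group alone, 115 of all 625 tested miRNAs reached that unadjusted level in R1855L, 20 in R821H and 31 in R1003Q. miR-25-3p, of the miR-106b cluster in MCM7, had 1424 and 1468 CPM in R1855L against 5539 and 5386 CPM in WT. Its log2 fold change was -1.92 (SE 0.23, edgeR adjusted p = 0.00513), and it stayed called with any 1 library left out. With the depth term miR-25-3p stayed called (-1.92, SE 0.17), and miR-92a-3p, of the miR-17-92 family, was called higher in R1855L (0.59, SE 0.16, edgeR adjusted p = 0.00679). In that comparison the model called 28.3% of all tested miRNAs, counting both directions. The medians of this list in R1855L, R821H and R1003Q were -0.18, -0.11 and -0.35 with group alone, and -0.16, -0.11 and -0.07 with the depth term.

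The profile of miR-451a over the 8 libraries was closest to that of 5 miRNAs outside the blood lists. By the root mean square difference of log2 CPM, each centred on its mean, the nearest were miR-34a-3p (0.19), miR-335-5p (0.20), miR-106b-5p (0.20), miR-135b-5p (0.21) and miR-15a-5p (0.21), beside a median of 0.70 over all tested miRNAs. Its cluster mate miR-144-3p was at 0.94, miR-486-5p at 1.12, miR-142-5p at 0.67 and miR-142-3p at 0.63. The 5 nearest were higher in deep libraries, by 0.81 to 1.17 log2 units. They were chosen by likeness to miR-451a over these same libraries, so their rise with depth is no separate result. These distances describe 8 libraries that share their depth differences.

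**Figure D4:**
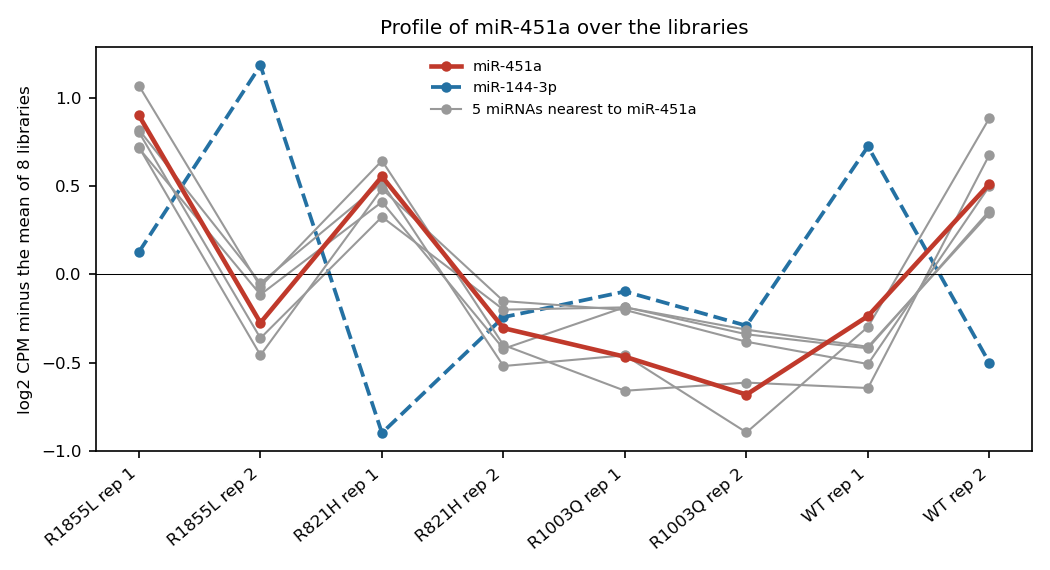
Log2 CPM minus its mean over the 8 libraries for miR-451a, miR-144-3p and the 5 miRNAs nearest to miR-451a, by library. miR-451a and its 5 nearest are high in R1855L replicate 1, R821H replicate 1 and WT replicate 2, where miR-144-3p is low in the R821H and WT libraries.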

How the data were processed

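Per the labels, total RNA was extracted with TRIzol and 100 µg entered AQ-seq. Named in the submitters' processing notes are cutadapt, BWA, bedtools, hg38 and mm10. The sources used here give neither versions nor roles. The authors deposited 1 table of estimated counts per library, with mature miRNA names and unnormalised reads, 19 to 33 of them fractional. Names not listed in a library were set to 0.

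Counts were rounded and tested in R 4.3.3 with edgeR 4.0.16. Names were kept by filterByExpr (minimum count 10), which left 625 of 1818 holding at least 99.8% of each library's reads. One quasi-likelihood model with TMM scaling and robust dispersions was fitted to all 8 libraries, with group alone. Calls are at a p under 0.05 after Benjamini-Hochberg adjustment over all 625. The SE is the absolute log2 fold change over the square root of F. Ratios used a pseudocount of 0.5. Strand ratios were tested with limma 3.58.1 in pairs with at least 80 reads per strand. Scripts were tested on simulated data, and figures drawn with matplotlib 3.10.9. Replicates of every group differed beyond sampling noise.

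The members, the lists and the depth classes were chosen with earlier results of these data known. Named miRNAs are the members, their other strands and locus, 2 lists of other blood and red-cell miRNAs, marker lists of other cell types, the 5 nearest profiles to miR-451a, and miR-5590-3p as a seed match. Alternatives were DESeq2 1.42.0, 3 other scalings, other filters, pseudocounts and read minimums, only the libraries compared, a replicate block, the depth term and each library left out. The crossed replicate block was chosen after seeing the data.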

Additional observations from a re-analysis of the deposited data

How the results depend on the processing

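Over the 5 tested members and their comparisons with WT, no alternative in which members were read called one, including the replicate block. The crossed replicate block gave only counts over all tested miRNAs, and whether it called a member was not read. With 2 libraries a group, the signs of most members' changes rested on single libraries. Leaving out 1 library in turn moved the R1855L change of miR-451a to between -0.47 and 0.70, the R821H change to between -0.50 and 0.36, and the R1003Q change to between -1.07 and -0.41. The ratio of miR-451a to miR-144-3p moved to between -1.50 and 0.74 in R1855L. For R821H the ratio was between -0.33 and 1.67, and for R1003Q between -1.42 and 0.57. Counts of called miRNAs ranged from 8 to 26 in R1855L, 2 to 22 in R821H against R1855L and 2 to 20 in R1003Q against R1855L, and called strand ratios in R1855L from 4 to 14. They were 0 throughout in the other comparisons. Signs also turned, within these ranges, for 4 results in R1855L: miR-144-3p (between -0.11 and 1.22), miR-142-5p (-0.50 and 0.0903), miR-142-3p (-0.33 and 0.12) and the miR-142 strand ratio (-0.25 and 0.11). They turned for miR-486-5p in R821H (-0.47 and 1.79) and miR-451a in R821H against R1855L (-0.75 and 0.47). In R1003Q they turned for miR-144-3p (-0.9997 and 0.33), miR-142-5p (-0.53 and 0.0526), miR-142-3p (-0.13 and 0.11) and miR-486-5p (-0.68 and 1.58).

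The count of 36 calls in R1855L against WT was 14 with library totals alone, 1 with scaling by miR-451a reads, 2 with only the 4 libraries compared, 19 with the replicate block and 177 with the depth term. For R821H against R1855L (24) these counts were 8, 1, 6, 15 and 114, with 38 by DESeq2 and 40 without a filter. For R1003Q against R1855L (23) they were 11, 2, 10, 13 and 93, with 38 by DESeq2. In R821H against WT (0) DESeq2 called 1 and the depth term 16, and in R1003Q against WT (0) the depth term called 2. The depth term called 32 strand ratios in R1855L (13 without it) and 1 in R1003Q (0). The cause of these differences was not tested.

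The miR-451a change of 0.01 in R821H was -0.0123 by DESeq2, -0.0115 with median-ratio size factors, -0.0117 with the depth term, -0.11 with library totals, -0.0654 without a filter, -0.0299 with a minimum of 50 CPM and -0.10 with the replicate block. The miR-142-3p change of 0.02 in R1003Q was -0.0271 by DESeq2 and with median-ratio size factors, -0.0152 with library totals, -0.0178 with the 50 CPM minimum, -0.13 without a filter, -0.0358 with only the 4 libraries compared and -0.0535 with the depth term. miR-486-5p in R1003Q was -0.0096 with library totals and -0.13 with the depth term, and miR-144-3p in R1003Q against R821H was -0.16 with the depth term. Scaling by miR-451a reads shifted the median of all tested miRNAs in R1003Q against WT to 0.75 (0.06 with TMM). Under it miR-144-3p was 0.12 and miR-142-5p 0.40 in R1003Q, both below that shift.

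Same-numbered libraries did not deviate together in every pair of groups (r from -0.67 to 0.53), so the numbers were not taken to pair the libraries. With the numbers crossed, an alternative chosen after seeing the data, 182 miRNAs were called in R1855L against WT, 30 in R821H against WT and 5 in R1003Q against R821H. These fits held only the libraries compared. In the comparisons with WT, crossing grouped deep with deep and shallow with shallow libraries. It was there the same split as the depth term, not a separate alternative. miR-150-5p and miR-223-3p had at most 10 reads in any library, deep or shallow, which limits their precision.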
